A study of Homo sapiens with 12 samples.

Results

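The polysome-associated RNA of control cells expressing a non-silencing hairpin was set against their total RNA. The 6 libraries compared, of the 12 in the series, were 3 of polysome-associated RNA and 3 of total RNA, labelled biological replicates 1 to 3, and every gene counted in them was a member. HEK293T is a human embryonic kidney line that carries the SV40 large T antigen. The shCtrl cells held a doxycycline-inducible, non-silencing short hairpin RNA, were a stable single clone, and were collected 36 h after doxycycline. The other 6 libraries, from a clone induced in the same way to express a hairpin against PRRC2B (shPRRC2B), a protein reported to act in translation, entered the fit and are given only beside values of the control cells. Both lines therefore shared the inducible hairpin system, doxycycline and growth in serum, and each was 1 clone, so the spread between replicates is that between samples of a clone. Of 59385 gene names, 32396 had a count in a shCtrl library and 18166 passed the filter on low counts and were tested.

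When several ribosomes translate an mRNA at once, the complex sediments deep into a sucrose gradient, and such complexes are called polysomes. The ribosomes that an mRNA can carry are limited by the length of its coding sequence and set by how often translation starts and how fast it proceeds. Some mRNAs are held off ribosomes until needed: those of ribosomal proteins and elongation factors through a terminal oligopyrimidine (TOP) tract at their 5′ end, which follows mTOR signalling, and ATF4 through upstream open reading frames. Noncoding RNAs that stay in the nucleus should not meet ribosomes, whereas several cytoplasmic ones are known to. In this comparison the polysome lysate had been cleared of nuclei, whereas total RNA came from whole cells, so a low ratio for nuclear retention and one for little translation cannot be told apart. In such bulk samples fewer cells holding an RNA and less RNA per cell cannot be told apart either.

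The total libraries held 18477467, 19489591 and 9855734 counts and the polysome libraries 14679675, 12434157 and 13142751. Values are given as CPM, the counts of a gene relative to library size after TMM scaling. The ratio of polysome-associated to total RNA is given as log2 with a standard error (SE). This SE was derived from edgeR's test, as the absolute log2 ratio divided by the square root of the F statistic. A gene was called rich on polysomes at a log2 ratio over 0.5 and poor at one under -0.5, each with a Benjamini-Hochberg adjusted p under 0.05. A ratio of 0 is set by the scaling and not by a spike-in: with library totals in its place the median of all genes moved by -0.996 on the log2 scale, so groups are read against the median of all genes tested, -0.22. PRRC2B itself averaged 281 ± 28.7 CPM (SD, n = 3) in shCtrl and 100.3 ± 2.32 CPM (SD, n = 3) in shPRRC2B total RNA. All 6 HEK293T markers had counts in every shCtrl library, whereas 7 to 9 of 13 markers of blood, endothelial, liver and stromal cells were at 0 in each and their summed level stayed between 7.92 and 21.5 CPM.

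One library stood apart. Among 9936 genes averaging 10 CPM or more, 4.67% in polysome replicate 1 lay more than 1 log2 unit from the mean of the other 2 polysome libraries, against 1.59% and 1.73% for replicates 2 and 3 and at most 0.101% for any total library. The RNAs that it held least of were clustered histone mRNAs, mitochondrial rRNA, MALAT1 and some stress-induced mRNAs; the values of several are given with and without it below.

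Polysome association differed widely between genes. Of 18166 genes tested, 5906 (32.5%) were rich and 7222 (39.8%) poor on polysomes. With library totals as the scale these were 3211 and 10675, since that scale moves all ratios down together. Group medians between 0 and the size of that shift change sign on it, those of lncRNAs and pseudogenes among them. All 3 polysome values lay above all 3 total values for 33.4% of genes and below them for 43.2%. The classes of the annotation differed. Protein-coding genes had a median log2 ratio of -0.30 (4330 rich and 5819 poor of 13698), lncRNAs of 0.79 (649 and 289 of 1372) and pseudogenes of 0.39 (314 and 235 of 778). Small noncoding RNAs and related transcripts were lowest, at -3.12 (5 rich and 39 poor of 67). They could pass the filter through the total libraries alone. Relative to all genes their median was -2.90, and it was -0.36 with limma on log2(CPM + 1). Protein-coding genes took 95.8% ± 0.1302 of the counts in total RNA and 95.2% ± 1.27 in polysome-associated RNA (SD, n = 3). The share of pseudogenes rose from 0.863% ± 0.0415 to 1.74% ± 0.154 (SD, n = 3). That of lncRNAs fell from 1.83% ± 0.142 to 1.08% ± 0.0449 (SD, n = 3), although their median log2 ratio was above that of all genes.

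Coding length ordered the mRNAs more than any other feature examined. Among 13698 protein-coding genes with an annotated canonical transcript, the 290 with a coding sequence of up to 300 nucleotides had a median log2 ratio of 2.90, and 85.9% of them were rich. Those of 901 to 1200 nucleotides had 0.36. The 397 genes over 6000 nucleotides had -2.68, and 88.7% of them were poor. The median fell from each length class to the next in every replicate. The shortest quintile of coding lengths (75 to 771 nucleotides) exceeded the longest quintile (2571 nucleotides or more) by 3.67 ± 0.10 on the log2 scale (SD over 3 replicates). Across genes, which are not independent replicates, Spearman's rho between the log2 ratio and coding length was -0.65.

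**Figure D1:**
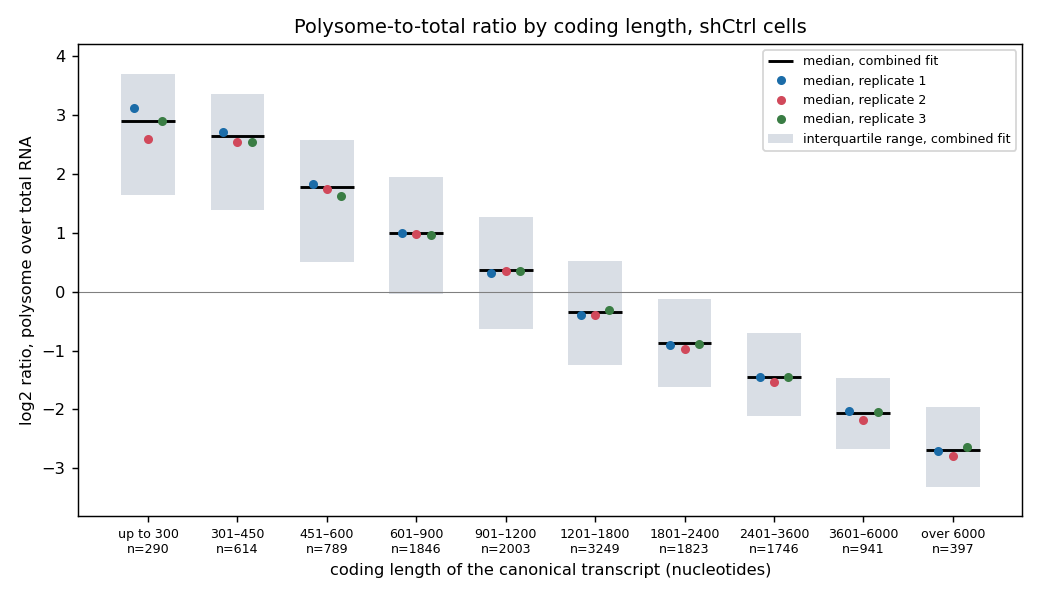
Log2 ratio of polysome-associated to total RNA (vertical axis) in protein-coding genes grouped by coding length in nucleotides (horizontal axis, with the number of genes), in shCtrl cells. Grey boxes span the interquartile range and black lines their median in the fit over all libraries; dots are the medians of the 3 replicates, and the medians of the fit fall from 2.90 in the shortest class to -2.68 in the longest.

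Whole transcript length gave a similar rank correlation, with rho -0.63 across the same genes. The ratio also fell with the length of the 3′ untranslated region: within the second quintile of coding length the tertile of genes with the shortest 3′ untranslated regions had a median log2 ratio of 1.24, the middle tertile 0.44 and the longest tertile -0.39, and the same order held in all 5 quintiles. Upstream AUG codons, which can divert scanning ribosomes, went with a lower ratio mainly in short mRNAs. In the shortest quintile the 717 genes with an upstream AUG had a median of 1.41 and the 2023 without one 1.92, while in the longest quintile both medians were -1.86. GC content at the last position of codons had rho 0.03, and GC content of the transcript 0.00473.

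The mRNAs of very large proteins had the lowest median of the gene lists examined. The list held 55 genes, all tested and all 55 poor, with a median log2 ratio of -3.19; they took 1.31% ± 0.0433 of the counts in total RNA and 0.0624% ± 0.00426 in polysome-associated RNA (SD, n = 3). The subset encoding chromatin and transcription proteins had a median of -2.98, that of the cytoskeleton -3.86 and that of ubiquitin ligases and large kinases -3.20. KMT2D, a histone H3 lysine 4 methyltransferase, had 192, 188 and 191 CPM in the total libraries and 3.56, 5.32 and 6.21 CPM in the polysome libraries (log2 ratio -5.25 ± 0.35, adjusted p = 2.7e-10). DYNC1H1, the heavy chain of cytoplasmic dynein, had 483, 529.9 and 553 CPM in the total libraries and 13.02, 19.1 and 18.3 CPM in the polysome libraries (log2 ratio -4.96 ± 0.20, adjusted p = 9.9e-13). For both genes every polysome value lay far below every total value. The ubiquitin ligase HERC2 had 33.96, 36.1 and 36.4 CPM in the total libraries and 1.69, 0.217 and 0.333 CPM in the polysome libraries (log2 ratio -5.48 ± 0.32, adjusted p = 5.4e-11), and its polysome replicate 1 was the highest of the 3. PRKDC, the catalytic subunit of DNA-dependent protein kinase, had a log2 ratio of -3.92, the ubiquitin ligase HUWE1 -3.55 and AHNAK, a giant scaffold protein, -3.07. The least depleted of the list was CHD4, the helicase of the NuRD complex, at -1.37.

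Cell adhesion and extracellular matrix genes lay in the same direction, with 24 of 24 poor and a median of -2.49. AGRN, the basement membrane proteoglycan agrin, had 163, 167 and 135 CPM in the total libraries and 9.83, 11.3 and 14.97 CPM in the polysome libraries (log2 ratio -3.69 ± 0.15, adjusted p = 1.4e-12). ITGB1, the integrin beta 1 subunit, was the highest of the group at -0.68, with all polysome values below all total values. Zinc finger genes with a ZNF name, most of which encode transcriptional repressors, had a median of -0.42. They ran from ZNF316 at -3.77 to ZNF32 at 3.16 among those with a mean of at least 10 CPM. Of the 447 tested members 87 were rich and 191 poor. These shares, 19.5% and 42.7%, stand beside 32.5% and 39.8% of all genes, so the share of rich genes was lower.

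The lowest log2 ratio among protein-coding genes averaging 10 CPM or more with no overlap between fractions was that of PPFIA4, a liprin alpha scaffold of the synapse, with 65.4, 62.4 and 56.9 CPM in the total libraries and 1.31, 1.19 and 1.33 CPM in the polysome libraries (log2 ratio -5.58 ± 0.21, adjusted p = 8.9e-13). Its coding sequence holds 3621 nucleotides, and it kept a log2 ratio of -4.17 once the trend on transcript length had been removed from each library. Then came HERC2, KMT2D and DYNC1H1, the ribosome assembly ATPase MDN1 (-4.72), the adhesion receptor CELSR2 (-4.61), the ubiquitin ligase RNF213 (-4.59) and the synaptic adhesion molecule IGSF9B (-4.50). PRRC2B, the target of the hairpin used in the other line, was itself poor in control cells, with 272, 313 and 258 CPM in the total libraries and 12.9, 18.3 and 21.1 CPM in the polysome libraries (log2 ratio -4.02 ± 0.19, adjusted p = 3.9e-12).

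At the other end lay short mRNAs of abundant complexes. Of the mRNAs of cytosolic ribosomal proteins, 75 of the 77 tested members were rich and 1 poor, the median log2 ratio was 3.01, and they took 7.65% ± 0.569 of the counts in total RNA and 29.1% ± 2.27 in polysome-associated RNA (SD, n = 3). The medians of replicates 1, 2 and 3 were 2.95, 2.82 and 3.31. The small-subunit genes had a median of 3.20 and the large-subunit genes of 2.94. RPS26 was the richest, with 186, 180.5 and 153 CPM in the total libraries and 3584, 2531 and 2626 CPM in the polysome libraries (log2 ratio 4.07 ± 0.18, adjusted p = 2.4e-12). RPL41, whose coding sequence is the shortest of any ribosomal protein, had 636, 642 and 619 CPM in the total libraries and 3518, 2931 and 3619 CPM in the polysome libraries (log2 ratio 2.41 ± 0.15, adjusted p = 9.2e-11), and 0.20 (adjusted p = 0.19, edgeR) with the length trend removed. RPL36A was the one poor member, at -1.07 from 15.6 ± 1.75 CPM (SD, n = 3) in total RNA, and reads shared with overlapping or near-identical copies were not counted.

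Translation factors and other mRNAs known to start with a TOP tract also tended to be rich: 17 of the 22 tested members were rich and 3 poor, with a median of 1.77. The elongation factor EEF1A1 had 5087, 5292 and 4858 CPM in the total libraries and 16491, 16681 and 22392 CPM in the polysome libraries (log2 ratio 1.87 ± 0.20, adjusted p = 1.2e-07). TPT1, translationally controlled tumour protein, had a log2 ratio of 2.75 and COX4I1, a cytochrome c oxidase subunit, 2.99. EEF2, which drives ribosome translocation, was only just rich, with 3072, 3583 and 2739.9 CPM in the total libraries and 4041, 4918 and 7162 CPM in the polysome libraries (log2 ratio 0.78 ± 0.26, adjusted p = 0.013), and its call was lost without polysome replicate 3 (log2 ratio 0.50, edgeR adjusted p = 0.082), without total replicate 3 (0.68, adjusted p = 0.06) and with library totals as the scale (-0.23). PABPC1, the cytoplasmic poly(A)-binding protein, was poor, with 859.9, 876 and 854 CPM in the total libraries and 219.7, 319 and 581 CPM in the polysome libraries (log2 ratio -1.21 ± 0.24, adjusted p = 2.2e-04). All of its polysome values lay below its total values, but they spread over more than 1 log2 unit.

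The tract itself can be read at the annotated start of these genes. For EEF1A1 and the others the first 24 bases from the RefSeq start (GRCh38.p14) are shown for 5 TOP mRNAs and for GAPDH, DYNC1H1 and KMT2D as contrasts, with the unbroken run of C and T at the start in capitals.
EEF1A1: CTTTTTCgcaacgggtttgccgcc
EEF2: CTCTTCCgccgtcgtcgccgccat
TPT1: CTTTTCCgcccgctcccccctccc
COX4I1: CTCTTCCggtcgcgggacaccggg
RPS27: CCTTTCCggcggtgacgacctacg
GAPDH: gtccggatgctgcgcctgcggtag
DYNC1H1: agtctgcggtgggctagcggacgg
KMT2D: gccgctccgctccaacacaaaata
These stretches lie at chr6:73521009-73521032 (EEF1A1, minus strand), chr19:3985440-3985463 (EEF2, minus strand), chr13:45341160-45341183 (TPT1, minus strand), chr16:85799695-85799718 (COX4I1, plus strand), chr1:153990762-153990785 (RPS27, plus strand), chr12:6535264-6535287 (GAPDH, plus strand), chr14:101964573-101964596 (DYNC1H1, plus strand) and chr12:49060771-49060794 (KMT2D, minus strand), all at the start of the first exon. A run of at least 5 bases, each C or T, from the start base on the sense strand was present in 40 of 52 tested ribosomal protein genes and 12 of 13 other TOP genes that have a single RefSeq start, and in 5.33% of all 7753 tested protein-coding genes with one. Outside both lists, 70 genes of the second quintile of coding length held such a run and had a median log2 ratio of 0.85, against 0.48 for the 1505 that did not. In the shortest quintile the medians were 1.83 and 1.85.

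Nuclear genes of the respiratory chain and the ATP synthase had the second highest median of the gene lists, 3.08. In oxidative phosphorylation, 67 of the 77 tested members were rich and 3 poor, and the replicate medians were 3.13, 3.03 and 3.05. Cytochrome c oxidase (complex IV) subunits were all rich, 11 of 11, with a median of 3.83, as were those of complex III, 9 of 9, with 2.79. Complex I had a median of 2.99, with 28 of 36 rich, and the ATP synthase 3.08, with 16 of 17 rich. COX7B, a small complex IV subunit, had 82.9, 79.3 and 78.5 CPM in the total libraries and 2054, 1917 and 1441 CPM in the polysome libraries (log2 ratio 4.49 ± 0.17, adjusted p = 8.9e-13). ATP5ME, a membrane subunit of the ATP synthase, had 13.1, 20.1 and 14.1 CPM in the total libraries and 200.2, 135 and 116 CPM in the polysome libraries (log2 ratio 3.25 ± 0.21, adjusted p = 2.1e-10). SDHA, the large catalytic subunit of complex II, was poor at -1.02. Mitochondrial ribosomal protein genes followed with a median of 2.23, where 68 of the 75 tested members were rich and 1 poor. MRPL33 was the highest of them at 4.12 and MRPS27 the lowest with a mean of at least 10 CPM, at -0.04, where the fractions overlapped.

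Other short-protein families ranked in the same region. Sm and LSm proteins, which form the core of spliceosomal snRNPs, had a median of 2.94, and 16 of the 17 tested members were rich and 1 poor. SNRPG had 56.9, 60.03 and 58.9 CPM in the total libraries and 1246, 832 and 687 CPM in the polysome libraries (log2 ratio 3.98 ± 0.19, adjusted p = 5.3e-12), while SNRPD3 was poor at -0.89. Actin-binding thymosins were high among cytoskeletal genes: TMSB10 had 205, 236 and 169.9 CPM in the total libraries and 3527, 2124 and 1976 CPM in the polysome libraries (log2 ratio 3.64 ± 0.21, adjusted p = 4.4e-11) and TMSB4X a log2 ratio of 4.49, whereas ACTB, beta-actin, had 1128, 1126 and 949 CPM in the total libraries and 1123, 1166 and 1089 CPM in the polysome libraries (log2 ratio 0.08 ± 0.15, adjusted p = 0.64). The ACTB fractions overlapped. Over tubulins, actins and their binding proteins, 11 of the 17 tested members were rich and 0 poor. Proteasome genes had a median of 1.10, with 23 of 30 rich and 4 poor, from PSMD1, a large base subunit, at -1.56 to PSMD8 at 2.34 among those with a mean of at least 10 CPM. Their shares were 76.7% and 13.3%, beside 32.5% and 39.8% of all genes.

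In the list of endoplasmic reticulum chaperones and translocon genes, 16 of the 33 tested members were rich and 8 poor, with a median of 0.23, and after removal of the length trend 18 were rich and 5 poor. Without that removal the shares were 48.5% and 24.2%, beside 32.5% and 39.8% of all genes. The translocon subunits SEC61B and SEC61G had log2 ratios of 4.06 and 4.04, and the signal sequence receptor subunit SSR4 3.69, whereas the lectin chaperone CANX had 641, 608 and 651 CPM in the total libraries and 141, 189.6 and 228 CPM in the polysome libraries (log2 ratio -1.77 ± 0.15, adjusted p = 8.6e-09). The pore subunit SEC61A1 was poor at -0.95. Chaperones of the cytosol and mitochondria spread from HSPH1 at -1.53 to the mitochondrial co-chaperonin HSPE1 at 2.70, with 5 rich and 4 poor of 20. These shares, 25% and 20%, stand beside 32.5% and 39.8% of all genes. HSPA8, the constitutive HSP70, was at 0.02 ± 0.12, and its fractions overlapped.

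**Figure D2:**
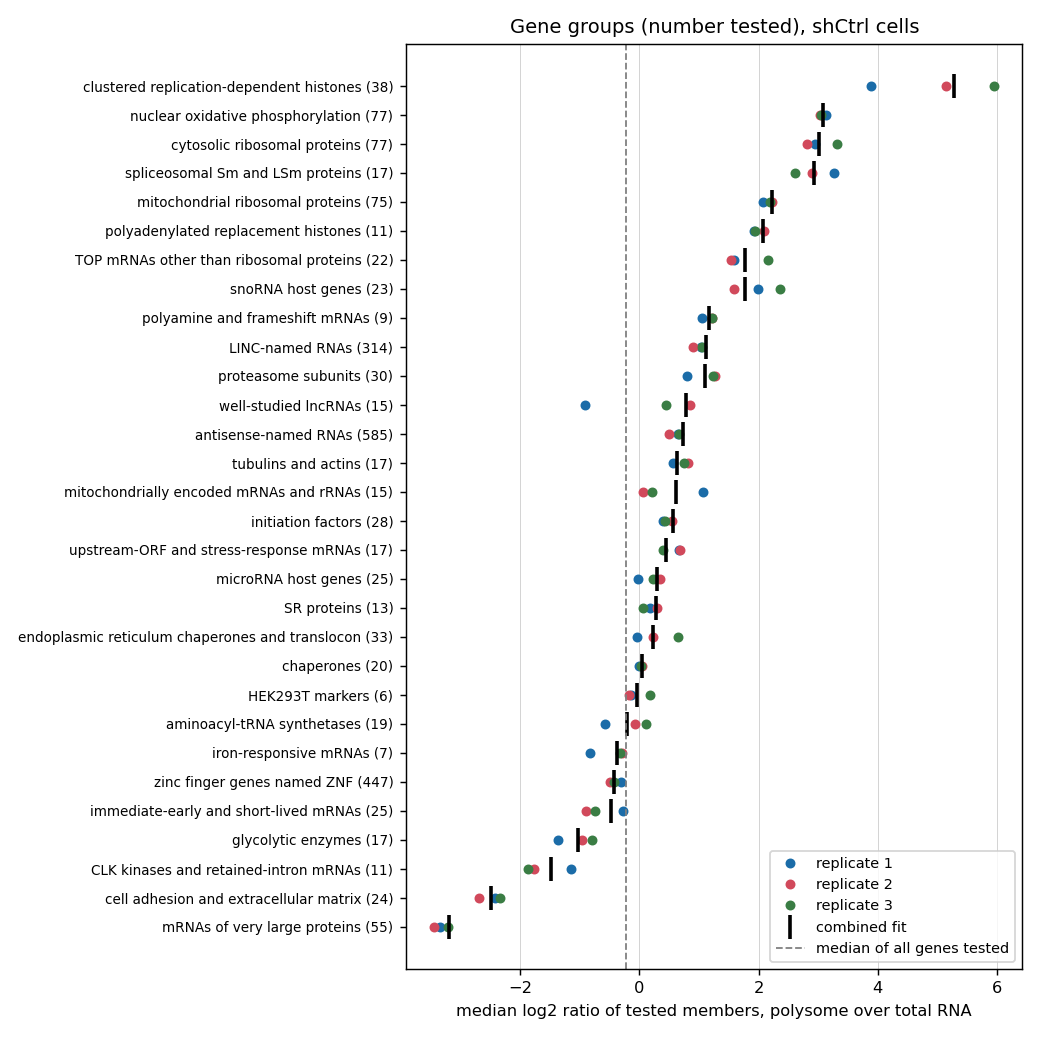
Median log2 ratio of polysome-associated to total RNA (horizontal axis) over the tested members of each gene group (vertical axis, number tested in brackets) in shCtrl cells. Dots are the medians of the 3 replicates, black ticks those of the fit over all libraries and the dashed line the median of all genes tested, -0.22; the groups run from -3.19 for very large proteins to 5.27 for clustered histones, and the histone and well-studied lncRNA medians of replicate 1 lie apart from those of replicates 2 and 3.

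Clustered histone mRNAs had the highest median ratio of the gene lists. These mRNAs are made in S phase and, unlike other mRNAs, end in a conserved stem-loop rather than a poly(A) tail. Of 55 names, 38 passed the filter, the other 17 having at most 22 counts in any shCtrl library; 37 of the 38 were rich and none poor, with a median log2 ratio of 5.27, and H1-5 was neither, at -0.47. Members could pass the filter through the polysome libraries alone, and 27 of the 38 had under 10 counts in at least 1 total library, so this count and median are a description. So are the values of H1-4, H2BC18 and H2AC20 below. In total replicates 1 to 3, H1-4 had 8, 8 and 3 counts, H2BC18 13, 20 and 3 and H2AC20 12, 16 and 2. Of the 11 with 10 counts or more in every total library, 11 were rich. The list's median relative to that of all genes was 5.49, and it was 3.78 with a minimum of 10 counts in every library and 3.25 with limma on log2(CPM + 1). H1-4, a linker histone, had 0.302, 0.292 and 0.207 CPM in the total libraries and 29.5, 171 and 101 CPM in the polysome libraries (log2 ratio 8.46 ± 0.84). H2BC18, an H2B gene, had 0.491, 0.7303 and 0.207 CPM in the total libraries and 29.6, 201 and 179 CPM in the polysome libraries (log2 ratio 8.01 ± 0.88). H2AC20, an H2A gene, had 0.453, 0.584 and 0.138 CPM in the total libraries and 22.9, 90.5 and 59.2 CPM in the polysome libraries (log2 ratio 7.03 ± 0.51). Polysome replicate 1 was the lowest of the 3 polysome libraries for all of them and for 35 of the 38, against 40.6% of all genes. It was nevertheless above every total library. H2AC21 had no count in any total library, and against a floor of 3 counts over the group its polysome level was at least 202-fold higher. Both kinds of library were prepared from poly(A)-selected RNA, and summed over the list they held 1790, 1764 and 881 counts in total RNA and 6920, 18101 and 14971 in polysome-associated RNA, and the part of this selection in the result was not tested.

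The stem-loop, the feature that sets this group off from other mRNAs, is shown for 4 genes from H1-4 at 8.46 to H4C9 at 2.54, read from the GENCODE 44 transcripts on GRCh38, with the 16 bases of the stem-loop motif in capitals.
H1-4: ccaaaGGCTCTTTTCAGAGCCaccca
H2BC18: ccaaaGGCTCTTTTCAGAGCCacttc
H4C8: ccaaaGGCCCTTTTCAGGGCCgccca
H4C9: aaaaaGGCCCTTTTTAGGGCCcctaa
All 4 are exonic and lie in the 3′ untranslated region, H1-4 at chr6:26157090-26157115 on the plus strand, H2BC18 at chr1:149811880-149811905 on the minus strand, H4C8 at chr6:26285126-26285151 on the minus strand and H4C9 at chr6:27139649-27139674 on the plus strand. The histone stem-loop consensus was matched on the sense strand within the last 200 bases of 36 of the 38 tested clustered histone transcripts, of none of the 11 replacement histone transcripts and of 0.292% of all tested protein-coding transcripts. The 4 transcripts outside the list that matched were H2AW, H2BU1, H3C13 and H2BC6, histone genes too, of which the first 3 were rich and H2BC6 poor. Replacement histones, whose mRNAs are polyadenylated and made throughout the cell cycle, had a median of 2.07, with 7 of 11 rich. H2AZ1, a variant H2A, had 255, 280.2 and 267 CPM in the total libraries and 2477, 2774 and 2314 CPM in the polysome libraries (log2 ratio 3.24 ± 0.14, adjusted p = 1.6e-12), with little spread among the polysome libraries.

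**Figure D3:**
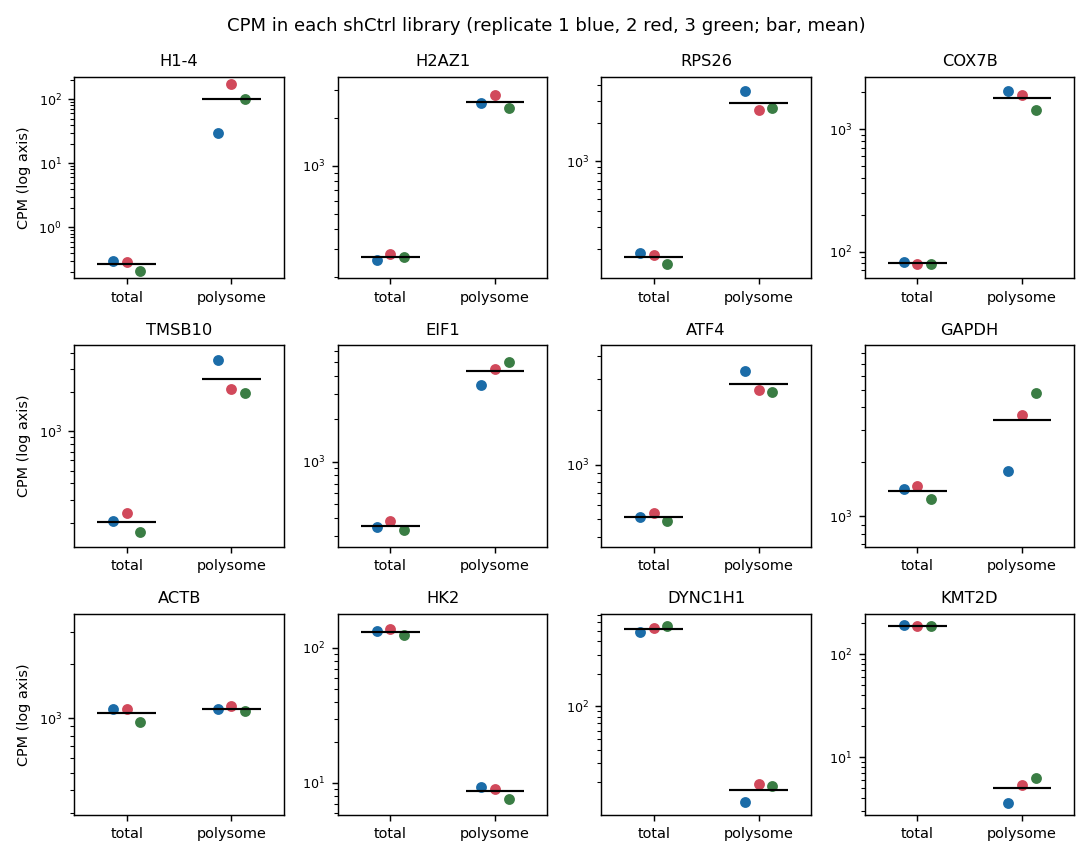
CPM (vertical axes, logarithmic) in the 3 total and 3 polysome libraries of shCtrl cells for 12 genes, with replicates 1, 2 and 3 in blue, red and green and a bar at the mean. Polysome values lie above total values for H1-4, H2AZ1, RPS26, COX7B, TMSB10, EIF1, ATF4 and GAPDH, overlap with them for ACTB and lie below them for HK2, DYNC1H1 and KMT2D.

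Because short mRNAs dominated the rich groups, the trend of counts on transcript length was removed from each library and the fit repeated. Of all genes 29.2% were then rich and 31.3% poor. Clustered histones kept a median of 3.07, Sm and LSm proteins 1.54, oxidative phosphorylation 1.2996, TOP mRNAs 1.10, ribosomal proteins 1.04 and mitochondrial ribosomal proteins 0.83, with 67 of 77 ribosomal protein genes still rich. At the other end, 51 of 55 very large protein genes and 20 of 24 adhesion genes were still poor. The proteasome moved to -0.08, next to the median of all genes, -0.07. For genes whose canonical transcript is long but whose other transcripts are short, such as TPT1 and COX7B, this correction depends on the transcript chosen. The correction also left a trend on coding length. Protein-coding genes of up to 300 coding nucleotides then had a median of 1.38 and those over 6000 of -0.84. Genes above 300 and up to 450 had 1.17 and those above 450 and up to 600 had 0.80. Median coding lengths were 453 nucleotides for ribosomal proteins, 423 for oxidative phosphorylation, 588 for mitochondrial ribosomal proteins and 8412 for very large proteins. Groups were not compared with mRNAs of like coding length.

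**Figure D4:**
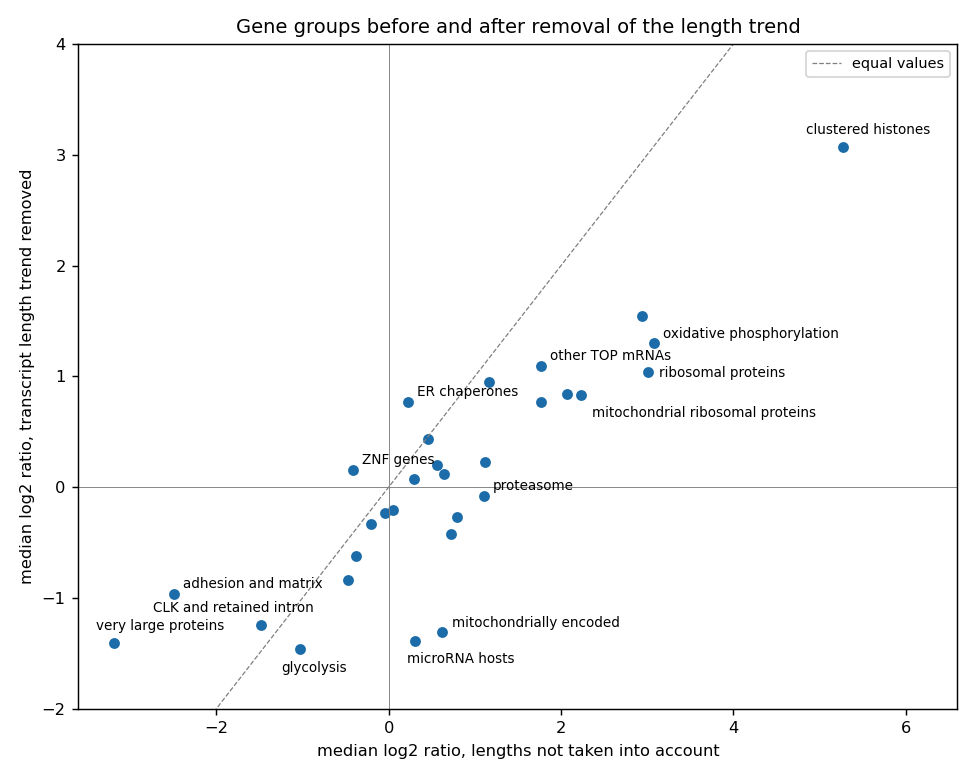
Median log2 ratio of each gene group with at least 5 tested members in shCtrl cells, without (horizontal axis) and with (vertical axis) removal of the trend on transcript length; the dashed line marks equal values. Clustered histones stay highest, at 3.07, and glycolytic enzymes, at -1.46, and mitochondrially encoded RNAs, at -1.31, are among the lowest once that trend is removed.

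Glycolytic enzymes were poor with and without the length trend. Of 17 genes, 11 were poor and 2 rich, with a median of -1.03, and after removal of the length trend 15 of 17 were poor and 0 rich, with a median of -1.46. HK2, a hexokinase that commits glucose to the pathway, had 133, 138 and 124 CPM in the total libraries and 9.37, 9.01 and 7.54 CPM in the polysome libraries (log2 ratio -3.93 ± 0.14, adjusted p = 7.2e-13). The lactate dehydrogenase LDHA had a log2 ratio of -1.03, pyruvate kinase PKM -1.37 and phosphoglycerate kinase PGK1 -1.64. GAPDH was the richest member, with 1408, 1469.5 and 1251 CPM in the total libraries and 1775, 3628 and 4798 CPM in the polysome libraries (log2 ratio 1.31 ± 0.26, adjusted p = 1.9e-04), and its polysome replicate 1 was lower than the other 2. With the length trend removed GAPDH was at -0.22 and neither rich nor poor. Aminoacyl-tRNA synthetases, which charge tRNAs, centred on the median of all genes, with 4 of 19 rich, 6 poor and a median of -0.21. Their shares were 21.1% and 31.6%, beside 32.5% and 39.8% of all genes. LARS1 was poor at -1.97 and SARS1 rich at 1.04.

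RNAs encoded in the mitochondrial genome are translated by mitochondrial and not cytosolic ribosomes. Of the 13 mRNAs, 5 were rich and 1 poor, where 32.5% and 39.8% of all genes were. Their median was 0.45, but it was -1.49 with the length trend removed, and MT-CO1 was at -0.56 with library totals as the scale. MT-CO1 had 9133, 7738 and 9369.6 CPM in the total libraries and 17221, 7843 and 10664 CPM in the polysome libraries (log2 ratio 0.45 ± 0.30, adjusted p = 0.18), so its polysome replicate 1 was well above the other libraries. MT-ND4L was the one poor mRNA, at -1.31; after removal of the length trend 12 of 13 were poor and none rich.

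Among mRNAs controlled by upstream open reading frames or induced in stress, 8 of the 17 tested members were rich and 5 poor, and the members did not move one way. These shares, 47.1% and 29.4%, stand beside 32.5% and 39.8% of all genes. ATF4, the transcription factor of the integrated stress response, had 517, 543 and 488 CPM in the total libraries and 3309, 2587 and 2536 CPM in the polysome libraries (log2 ratio 2.44 ± 0.22, adjusted p = 1.5e-08). DDIT3, its target CHOP, had 5.17, 4.75 and 5.32 CPM in the total libraries and 23.6, 84.9 and 94.1 CPM in the polysome libraries (log2 ratio 3.73 ± 0.36, adjusted p = 4.1e-08) and without polysome replicate 1 a log2 ratio of 4.11. EIF4EBP1, a repressor of cap-dependent initiation, was rich at 3.62. PPP1R15A, the phosphatase subunit GADD34, was at 0.38 and was not called, and IBTK was poor at -1.56. In the polyamine pathway, where frameshifting and upstream frames govern synthesis, 7 of the 9 tested members were rich and 1 poor. OAZ1, the antizyme that marks ornithine decarboxylase for degradation, had 381, 423 and 349.9 CPM in the total libraries and 3566, 2854 and 3047 CPM in the polysome libraries (log2 ratio 3.04 ± 0.15, adjusted p = 9.0e-12), and spermidine synthase SRM was at 3.07. AMD1, which makes the aminopropyl donor, was rich at 0.73 but at -0.27 with library totals as the scale, and AZIN1, the antizyme inhibitor, was at 0.16 with overlapping fractions.

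Ferritin mRNAs, which iron-regulatory proteins keep off ribosomes when iron is scarce, were rich. FTH1, the heavy chain, had 223, 259 and 207 CPM in the total libraries and 479, 424 and 528 CPM in the polysome libraries (log2 ratio 1.05 ± 0.15, adjusted p = 3.6e-06), and FTL, the light chain, had 172, 171 and 151 CPM in the total libraries and 447, 386 and 473 CPM in the polysome libraries (log2 ratio 1.40 ± 0.12, adjusted p = 7.6e-09). Both became poor, at -0.58 and -0.62, once the length trend was removed. EPAS1, also under an iron-responsive element, was poor at -2.64, as was the transferrin receptor TFRC at -2.11. Over the list, 2 of the 7 tested members were rich and 3 poor, or 28.6% and 42.9%, beside 32.5% and 39.8% of all genes. Immediate-early and other short-lived mRNAs showed shares of 32.00% rich and 48.00% poor, beside 32.5% and 39.8% of all genes: 8 of the 25 tested members were rich and 12 poor. JUN had 415, 523 and 353 CPM in the total libraries and 104, 45.6 and 48.1 CPM in the polysome libraries (log2 ratio -2.71 ± 0.26, adjusted p = 3.6e-08), and EGR1 and FOS were poor at -2.26 and -1.31. The inhibitors of differentiation ID1, ID2 and ID3 were rich at 3.29, 2.28 and 4.09. MYC had 100.1, 107 and 87.5 CPM in the total libraries and 65.9, 58.1 and 62.3 CPM in the polysome libraries (log2 ratio -0.66 ± 0.16, adjusted p = 0.0013).

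Initiation factors ranged from EIF4A1 at -3.56 to EIF1 at 3.63, with 15 of 28 rich and 8 poor. Those shares, 53.6% and 28.6%, stand beside 32.5% and 39.8% of all genes. EIF4A1 averaged under 10 CPM, and multi-mapped or ambiguous pairs were not counted. EIF3A was the lowest with a mean of at least 10 CPM. EIF1, which guards start codon choice, had 346, 379 and 327 CPM in the total libraries and 3489.6, 4481 and 5075 CPM in the polysome libraries (log2 ratio 3.63 ± 0.20, adjusted p = 1.8e-11). Small eIF3 subunits such as EIF3I (2.25) and EIF3K (2.24) were rich, whereas EIF3A, the largest, had 395, 422 and 412 CPM in the total libraries and 46.6, 36.02 and 50.1 CPM in the polysome libraries (log2 ratio -3.21 ± 0.14, adjusted p = 2.3e-12). The scaffold EIF4G1 was poor at -2.97 and the cap-binding protein EIF4E rich at 0.95. Splicing regulators of the SR family had 3 of 13 rich and 4 poor, from SRSF11 at -1.90 to SRSF3 at 2.18. Their shares were 23.1% and 30.8%, beside 32.5% and 39.8% of all genes. Genes known to keep introns in nuclear transcripts were mostly poor, 8 of 11, with NKTR the lowest at -3.50, while the kinase CLK1 was rich at 1.26 from 33.6, 34.5 and 35.03 CPM in total and 96.9, 61.4 and 87.96 CPM in polysome libraries.

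Noncoding RNAs were not uniformly absent from polysomes. Of 1372 tested lncRNAs, 649 were rich and 289 poor, and RNAs could pass the filter through the polysome libraries alone. As a share of all counts, however, lncRNAs fell from 1.83% in total RNA to 1.08% in polysome-associated RNA (means, n = 3). Their ratio also fell with length, with rho -0.23 over 1372 lncRNAs, and with the length trend removed 337 of all tested lncRNAs were rich and 486 poor, so the median moved to -0.23. Among 314 RNAs with a LINC name 163 were rich and 50 poor, and among 585 with an antisense name 270 and 141; since no strand setting was stated for the counting, reads of an antisense RNA and of the gene it overlaps cannot be told apart. Among the 25 tested microRNA host genes 10 were rich and 8 poor, or 40% and 32%, beside 32.5% and 39.8% of all genes.

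Host genes of small nucleolar RNAs, whose spliced exons carry TOP-like starts and short open reading frames, stood out among them: 19 of the 23 tested members were rich and 2 poor, with a median of 1.77. GAS5 had 159, 159.9 and 152 CPM in the total libraries and 693, 1184 and 1588 CPM in the polysome libraries (log2 ratio 2.88 ± 0.25, adjusted p = 8.1e-09). ZFAS1 had 15.02, 17.7 and 16.9 CPM in the total libraries and 101, 110.5 and 138 CPM in the polysome libraries (log2 ratio 2.82 ± 0.15, adjusted p = 1.7e-11), and SNHG1 a log2 ratio of 1.504 that turned to -0.18 with the length trend removed. SNHG4 was poor at -1.07. Among well-studied lncRNAs 7 of the 15 tested members were rich and 7 poor, or 46.7% each, beside 32.5% and 39.8% of all genes. The nuclear RNAs NEAT1 and KCNQ1OT1, which build paraspeckles and silence an imprinted cluster, were poor, as were TUG1 and the cytoplasmic NORAD, at -2.46, -3.28, -2.08 and -2.02. NEAT1 had 276, 229 and 221 CPM in the total libraries and 68.6, 23.8 and 39.4 CPM in the polysome libraries, and its log2 ratio was -0.01 (adjusted p = 0.98, edgeR) with the length trend removed. DANCR was rich, with 33.9, 32.4 and 31.7 CPM in the total libraries and 336, 179 and 191 CPM in the polysome libraries (log2 ratio 2.85 ± 0.20, adjusted p = 4.7e-10).

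By the same rule as for mRNAs, the lowest lncRNAs and pseudogenes were LINC00342 (-5.23), LINC00894 (-4.28), MIR600HG (-4.20), LINC00641 (-3.65) and the helicase pseudogene DDX12P (-3.26). LINC00342 fell from 27.4, 20.7 and 30.5 CPM in total RNA to 1.31, 0.651 and 0 CPM in the polysome libraries. The highest were TMSB4XP8 (4.96), FAAHP1 (4.44), SNRPEP4 (4.39), ZNF687-AS1 (4.33) and GIHCG (4.31). GIHCG had 3.74, 3.03 and 3.04 CPM in the total libraries and 35.03, 81.9 and 80.1 CPM in the polysome libraries (log2 ratio 4.31 ± 0.32, adjusted p = 9.9e-10). The pseudogenes TMSB4XP8 and SNRPEP4 are copies of TMSB4X and SNRPE, and their reads may come from those mRNAs. Of 126 tested pseudogenes named for a ribosomal protein gene, 99 were rich and 12 poor, with a median of 2.72, beside 3.01 for the ribosomal protein genes themselves.

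Small RNAs differed by kind. Of 23 tested snoRNAs 13 were poor and none rich, with a median of -3.34, and of 19 microRNA precursors 14 were poor and none rich. No shCtrl polysome library held a count for 10 of the snoRNAs and 7 of the microRNA precursors. Such RNAs could pass the filter through the total libraries alone, so these counts and this median are a description. Of 17 mitochondrial tRNAs 10 were poor. Of 6 small nuclear RNAs 1 was rich and 2 were poor. SCARNA2, a Cajal body RNA chosen after its values were seen, was rich, with 0.3396, 0.402 and 0.346 CPM in the total libraries and 0.656, 4.01 and 3.55 CPM in the polysome libraries (log2 ratio 2.87 ± 0.75). These were 9, 11 and 5 counts in total RNA and 7, 37 and 32 in polysome-associated RNA, so the ratio is a description. RN7SL1, the RNA of the signal recognition particle, had 132, 91.6 and 84.6 CPM in the total libraries and 6.74, 5.21 and 13.98 CPM in the polysome libraries (log2 ratio -3.58 ± 0.38, adjusted p = 1.1e-07). Most of these RNAs lie within host transcripts, whose reads may be among them, and their levels were low, with a highest mean of 1.99 CPM for snoRNAs and 2.53 CPM for microRNA precursors.

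Polysome replicate 1 lay far from the other polysome libraries for mitochondrial rRNAs, some noncoding RNAs and some stress genes, of which MT-RNR2, RMRP and CHAC1 were chosen after their values were seen. MT-RNR1, the mitochondrial 12S rRNA, had 626, 626 and 626 CPM in the total libraries and 1009, 7939 and 20252 CPM in the polysome libraries (log2 ratio 3.96 ± 0.64, adjusted p = 2.4e-05). The 16S rRNA MT-RNR2 had 3818, 3858 and 3599.6 CPM in the total libraries and 1886, 5289 and 12572 CPM in the polysome libraries, so its fractions overlapped. MALAT1, a nuclear speckle RNA, had 116, 90.3 and 109 CPM in the total libraries and 14.99, 162 and 369 CPM in the polysome libraries (log2 ratio 0.79 ± 0.60, adjusted p = 0.24), and it lay below total RNA in replicate 1 and above it in replicates 2 and 3. RMRP, the RNA of RNase MRP, had 0.0755, 0.0365 and 0.0691 CPM in the total libraries and 0.656, 3.91 and 7.54 CPM in the polysome libraries (log2 ratio 5.92 ± 1.00). These were 2, 1 and 1 counts in total RNA and 7, 36 and 68 in polysome-associated RNA, so the ratio is a description. The stress gene CHAC1 had 7.36, 6.098 and 6.63 CPM in the total libraries and 16.5, 85.9 and 81.97 CPM in the polysome libraries (log2 ratio 3.19 ± 0.56, adjusted p = 6.1e-05). For each of these 5 RNAs polysome replicate 1 was the lowest polysome library. Over genes averaging 10 CPM or more, 188 lay over 1 log2 unit above the other polysome libraries in it and 276 over 1 unit below them. U2AF1, a splicing factor with a near-identical annotated copy and also chosen after its values were seen, went the other way, with 9.58, 12.6 and 8.71 CPM in the total libraries and 37.00, 2.17 and 1.77 CPM in the polysome libraries. Without polysome replicate 1 the log2 ratio of U2AF1 was -2.41, then poor (adjusted p = 6.7e-04, edgeR), of MT-RNR2 1.22, then rich (adjusted p = 2.8e-04, edgeR; 0.81 and 0.082 with it), and of CHAC1 3.62. Also without it, the log2 ratio of MT-RNR1 was 4.46, of MALAT1, then rich, 1.302 and of RMRP 6.42, and 37 of the 38 clustered histones were rich. The summed ribosomal protein level of polysome replicate 1, 378972 CPM, lay between those of replicate 2 (377498) and replicate 3 (461911). What set the library apart was not tested.

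**Figure D5:**
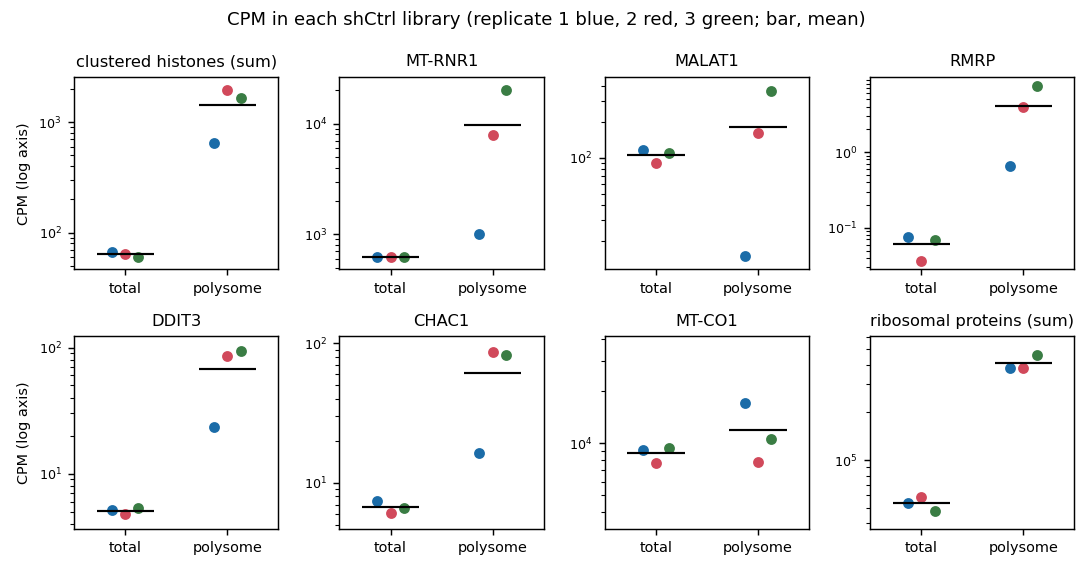
CPM (vertical axes, logarithmic) in the 3 total and 3 polysome libraries of shCtrl cells, with replicates 1, 2 and 3 in blue, red and green and a bar at the mean. Polysome replicate 1 (blue) is the lowest of the polysome libraries for the summed clustered histones, MT-RNR1, MALAT1, RMRP, DDIT3 and CHAC1 and the highest for MT-CO1, while for the summed ribosomal proteins it lies beside replicate 2.

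How far the replicates matched depended on depth. The log2 ratio was formed within each replicate number, although the labels do not say whether same-numbered libraries came from the same culture. Over 9936 genes averaging 10 CPM or more, Pearson's r between replicates, across genes, was 0.955, 0.9497 and 0.972, the highest being that of replicates 2 and 3, and over the 8230 genes below 10 CPM it was 0.7404, 0.6999 and 0.723. The median SD of a gene's log2 ratio over the 3 replicates was 0.27 in the first set and 0.76 in the second. All 3 ratios had the same sign for 89.2% and 72.3% of genes. An SD over 1 was found for 110 of the 9936 genes and for 3214 of the 8230.

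The order of genes was much the same in the other line. Over the 9936 genes the ratios of single shCtrl and shPRRC2B replicates, which share no library, had r from 0.923 to 0.954 across genes. The dependence on length was shallower in shCtrl cells: genes over 6000 coding nucleotides had a median of -2.68 in shCtrl and -3.77 in shPRRC2B cells, and those of up to 300 nucleotides 2.90 and 3.77. By the interaction term of the same edgeR fit, 16.4% of genes had a lower and 10.7% a higher ratio in shPRRC2B than in shCtrl cells by more than 0.5 on the log2 scale. Among the 55 very large protein genes 47 differed, among the 24 adhesion genes 20 and among the 38 clustered histones 4.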

How the data were processed

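Polysome-associated RNA (fractions pooled from a sucrose gradient of cytoplasmic lysate after cycloheximide) and total RNA (whole cells, Trizol) were poly(A)-selected and sequenced. The authors deposited raw counts of read pairs per gene name. Per the labels and methods, Trimmomatic 0.36 removed adapters, HISAT2 2.1.0 placed reads on GRCh38, and pairs were counted by featureCounts (Subread 2.0.1) on GENCODE annotation, without multi-mapped or ambiguous pairs. An option to ignore marked duplicates was set, with no marking step stated, and no strand setting is given. Genes sharing a name are summed. Depth in shCtrl was 9855734 to 19489591 counts; floors on counts of 0 cover counting error only.

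Counts of the 12 libraries were filtered (filterByExpr, minimum count 10), scaled by TMM and fitted with edgeR 4.0.16 (quasi-likelihood, 4 groups, Benjamini-Hochberg adjustment, R 4.3.3). The fit was run on simulated counts in which all groups shared 1 mean per gene and few genes were changed. At a true log2 change of 1 it recovered 121 of 181 changed genes with 4 false calls. At 2 it recovered 166 of 187 with 13 false calls. Most genes were called in the real data, so this run cannot vouch for the scaling there. Alternatives were DESeq2 1.42.0, limma 3.58.1, other filters and scalings, removal of the length trend, a replicate block, shCtrl libraries alone and leaving out each library. Lengths are those of GENCODE 44 canonical transcripts, matched by name for 15934 of 18166 tested genes. The genes named were the 8 lowest and 8 highest protein-coding genes and the 5 lowest and 5 highest lncRNAs or pseudogenes with a mean of at least 10 CPM and no overlap between fractions, the lowest and highest member of each list or name class with a mean of at least 10 CPM, and a fixed set; other list members given were chosen with their values known. Members and lists were chosen with earlier results of these data known. Some genes picked by this rule are not reported here.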

Additional observations from a re-analysis of the deposited data

Results flagged for a closer look

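For 49 of the 108 named genes the log2 ratio differed between the lines by the interaction term of the edgeR fit (adjusted p under 0.05 and a difference over 0.5). Of the 49, 17 had a higher and 32 a lower ratio in shPRRC2B than in shCtrl cells. Over all genes, 16.4% had a lower and 10.7% a higher ratio in shPRRC2B cells. Apart from a fixed set, the named genes were picked for the highest or lowest shCtrl ratios among genes averaging 10 CPM or more. The difference contains that same shCtrl ratio, so the shares of named genes and of all genes are not like for like. Differences are given as the log2 ratio in shPRRC2B minus that in shCtrl cells. Each line was 1 clone, so the hairpin and the clone cannot be told apart. Among histone genes, the ratio was lower in shPRRC2B cells for H2AC16 (-3.92), H4C8 (-3.08) and H2AC12 (-2.52). These histone genes were named for their high shCtrl ratios, so their differences are a description. In shCtrl total replicates 1 to 3, H2AC16 had 3, 6 and 4 counts, H4C8 13, 8 and 5 and H2AC12 6, 8 and 2. Among mRNAs of large or adhesion proteins, the ratio was lower in shPRRC2B cells for HERC2 (-2.14), HUWE1 (-2.09), PRKDC (-2.08), KMT2D (-1.75), CHD4 (-1.55), EIF3A (-1.42), ITGB1 (-1.20), MDN1 (-1.19), CELSR2 (-1.07), IGSF9B (-0.95) and DYNC1H1 (-0.86) and higher for PPFIA4 (2.40). HK2 (0.16) and PRRC2B (0.16) did not differ by this rule. Among genes of the ribosome, oxidative phosphorylation, Sm proteins, TOP mRNAs and snoRNA hosts, the ratio was lower in shPRRC2B cells for PABPC1 (-1.60), MRPS27 (-1.18) and SNRPD3 (-1.04) and higher for MRPL33 (0.73), SNRPG (0.82), RPL36A (0.84), ZFAS1 (0.88), RPS27 (1.27), RPL41 (1.53) and ATP5ME (1.79). Among noncoding RNAs and pseudogenes, the ratio was lower in shPRRC2B cells for MT-RNR1 (-3.25), MALAT1 (-3.21) and LINC00641 (-2.26) and higher for DANCR (0.85). Among other mRNAs, the ratio was lower in shPRRC2B cells for CANX (-2.26), EPAS1 (-1.58), SRSF3 (-1.50), ACTB (-1.46), NEFM (-1.24), HSPH1 (-0.97), NKTR (-0.97), LARS1 (-0.92), COL1A1 (-0.90), KRT18 (-0.88), AZIN1 (-0.77) and PSMD1 (-0.63) and higher for SRM (0.54), TMSB4X (0.56), ZNF32 (0.76), FTH1 (0.78), OAZ1 (0.94), PPP1R15A (1.13), TMSB10 (1.21) and HSPE1 (1.28). The ratios of MALAT1 (0.79 in shCtrl and -2.42 in shPRRC2B), ACTB (0.08 in shCtrl and -1.39 in shPRRC2B) and AZIN1 (0.16 in shCtrl and -0.61 in shPRRC2B) had opposite signs in the lines. MT-RNR1 and MALAT1, with the clustered histones, were also those in which shCtrl polysome replicate 1 lay apart, and its part in these differences was not tested.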

How the results depend on the processing

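Of the 108 named genes, 108 kept their direction and side of the threshold with DESeq2 and with RLE size factors. Rich and poor genes numbered 6085 and 7108 with DESeq2, 5699 and 7247 with limma and 5574 and 6507 in shCtrl libraries alone. Medians below are relative to that of all genes, and a median is listed where it moved by more than the spread between replicates; the causes were not tested. Values under library totals were number of rich genes 3211. Medians after removal of the length trend with the replicate block were cytosolic ribosomal proteins 1.12, TOP mRNAs other than ribosomal proteins 1.04, initiation factors 0.27, nuclear oxidative phosphorylation 1.35, mitochondrial ribosomal proteins 0.91, mitochondrially encoded mRNAs and rRNAs -1.37, snoRNA host genes 0.77, well-studied lncRNAs -0.15, mRNAs of very large proteins -1.31, clustered replication-dependent histones 3.01, polyadenylated replacement histones 0.94, iron-responsive mRNAs -0.53, polyamine and frameshift mRNAs 1.04, immediate-early and short-lived mRNAs -0.73, SR proteins 0.17, glycolytic enzymes -1.37, proteasome subunits 0.00623, chaperones -0.10, endoplasmic reticulum chaperones and translocon 0.85, cell adhesion and extracellular matrix -0.87, tubulins and actins 0.21, spliceosomal Sm and LSm proteins 1.63, HEK293T markers -0.14, zinc finger genes named ZNF 0.24, LINC-named RNAs 0.26, antisense-named RNAs -0.33, microRNA host genes -1.39, protein-coding 0.0756, lncRNA -0.17, pseudogene -1.20, other noncoding -4.56 and shortest minus longest quintile of coding length 1.43. Under removal of the length trend, the medians were cytosolic ribosomal proteins 1.11, TOP mRNAs other than ribosomal proteins 1.16, initiation factors 0.26, nuclear oxidative phosphorylation 1.37, mitochondrial ribosomal proteins 0.90, mitochondrially encoded mRNAs and rRNAs -1.24, snoRNA host genes 0.83, well-studied lncRNAs -0.20, mRNAs of very large proteins -1.34, clustered replication-dependent histones 3.14, polyadenylated replacement histones 0.91, iron-responsive mRNAs -0.55, polyamine and frameshift mRNAs 1.02, immediate-early and short-lived mRNAs -0.77, SR proteins 0.14, glycolytic enzymes -1.39, proteasome subunits -0.00956, chaperones -0.14, endoplasmic reticulum chaperones and translocon 0.84, cell adhesion and extracellular matrix -0.90, tubulins and actins 0.18, spliceosomal Sm and LSm proteins 1.61, HEK293T markers -0.17, zinc finger genes named ZNF 0.22, LINC-named RNAs 0.29, antisense-named RNAs -0.36, microRNA host genes -1.32, protein-coding 0.0688, lncRNA -0.16, pseudogene -1.17, other noncoding -4.60 and shortest minus longest quintile of coding length 1.41. Values under a minimum of 10 counts in every library were initiation factors 0.62, nuclear oxidative phosphorylation 3.09, mitochondrial ribosomal proteins 2.24, mRNAs of very large proteins -3.17, clustered replication-dependent histones 3.78, polyadenylated replacement histones 2.08, SR proteins 0.30, chaperones 0.0604, tubulins and actins 0.70, HEK293T markers -0.0291, LINC-named RNAs 1.27, antisense-named RNAs 1.08, microRNA host genes 0.77, protein-coding -0.17, lncRNA 1.08, pseudogene 1.25, other noncoding -3.11 and median SD over replicates 0.30. Medians after a test of every gene with a count were initiation factors 0.98, nuclear oxidative phosphorylation 3.47, mitochondrial ribosomal proteins 2.60, mRNAs of very large proteins -2.77, polyadenylated replacement histones 2.49, upstream-ORF and stress-response mRNAs 0.87, polyamine and frameshift mRNAs 1.58, SR proteins 0.71, chaperones 0.47, cell adhesion and extracellular matrix -2.07, tubulins and actins 1.05, HEK293T markers 0.38, zinc finger genes named ZNF -0.0314, LINC-named RNAs 0.55, antisense-named RNAs 0.55, protein-coding 0.16, lncRNA 0.55, pseudogene -0.0251 and other noncoding -1.04. Under limma on log2(CPM + 1), the medians were nuclear oxidative phosphorylation 3.21, mitochondrial ribosomal proteins 2.29, well-studied lncRNAs 0.0769, clustered replication-dependent histones 3.25, chaperones 0.22, LINC-named RNAs 0.72, antisense-named RNAs 0.53, lncRNA 0.59, pseudogene 0.31, other noncoding -0.36 and shortest minus longest quintile of coding length 3.08. Values under a fit of shCtrl libraries alone with the replicate block were well-studied lncRNAs -0.15, polyamine and frameshift mRNAs 1.596, chaperones 0.33, microRNA host genes 0.22, protein-coding -0.0619 and other noncoding -3.45. Medians after a fit of shCtrl libraries alone were polyamine and frameshift mRNAs 1.56, protein-coding -0.0641 and other noncoding -3.42. Under the replicate block, the medians were chaperones 0.31 and protein-coding -0.0616. Leaving out each shCtrl library in turn gave nuclear oxidative phosphorylation 3.24 to 3.39, well-studied lncRNAs -0.00345 to 1.06, upstream-ORF and stress-response mRNAs 0.61 to 0.86, polyamine and frameshift mRNAs 1.37 to 1.49, immediate-early and short-lived mRNAs -0.61 to -0.19, chaperones 0.26 to 0.33, tubulins and actins 0.82 to 1.05, LINC-named RNAs 1.27 to 1.43, antisense-named RNAs 0.84 to 0.94, protein-coding -0.0869 to -0.0438, pseudogene 0.43 to 0.58 and other noncoding -3.70 to -2.42. The log2 ratio changed sign under a fit of shCtrl libraries alone for MRPS27 (0.0179), under removal of the length trend with the replicate block for CHD4 (0.0145), FTL (-0.63), GAPDH (-0.33), ACTB (-0.80), PPP1R15A (-0.00764), FTH1 (-0.58), SNHG1 (-0.25), MT-CO1 (-0.82), MT-ND1 (-1.64), TUBA1B (-0.83) and HSPA8 (-0.43), under removal of the length trend for CHD4 (0.0448), FTL (-0.62), GAPDH (-0.22), ACTB (-0.80), FTH1 (-0.58), SNHG1 (-0.18), MT-CO1 (-0.75), MT-ND1 (-1.54), TUBA1B (-0.75) and HSPA8 (-0.43), under library totals for AZIN1 (-0.84), ACTB (-0.92), EEF2 (-0.23), PPP1R15A (-0.62), MALAT1 (-0.24), MT-CO1 (-0.56), MT-ND1 (-0.59), TUBA1B (-0.67), HSPA8 (-0.99) and AMD1 (-0.27), under a test of every gene with a count for ACTB (-0.0511) and HSPA8 (-0.11), under limma on log2(CPM + 1) for MALAT1 (-0.0953), under a minimum of 10 counts in every library for HSPA8 (-0.0200). Removal of the length trend also ended, with no change of sign, the calls of SARS1, NEAT1, H4C9, IBTK, CLK1, HSPH1, HSPE1, ITGB1, SNRPD3, KRT18, RPL41, RPS27 and MYC. Calls that changed with 1 library left out were EEF2 (lost without polysome or total replicate 3), MALAT1, TUBA1B, MT-RNR2 and U2AF1 (gained without polysome replicate 1) and MT-ND1 (gained without polysome replicate 2). Leaving out single shCtrl libraries turned the sign of some ratios near 0, with ranges of MRPS27 -0.27 to 0.0895, ACTB -0.0169 to 0.11, MALAT1 -0.28 to 1.302, MT-ND1 -0.0172 to 0.69 and HSPA8 -0.0816 to 0.0764. With the replicate block there were 5613 rich and 7059 poor genes, and no named gene changed its call. The labels do not say whether same-numbered libraries shared a culture. Deviations of same-numbered shCtrl libraries correlated at 0.01403 to 0.03101, and not every shCtrl library correlated best with its own number. In shPRRC2B cells these correlations ran from 0.0408 to 0.0619, each the highest of its total library. Correlations this small cannot settle whether the libraries were paired. Genes low in counts were measured least precisely, as the replicate spread shows.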
